A study of Oryza sativa with 12 samples.

Results

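The genes described here are 8 A- and B-type cyclins of rice (*CYCA1-4*, *CYCA2-1*, *CYCA3;1*, *CYCA3-2*, *CYCB1-1*, *CYCB1;3*, *CYCB1-5* and *CYCB2-2*), the cyclin-dependent kinase gene *CDKB1-1* and the retinoblastoma-related gene *OsRBR1*. They were picked by name, as the 10 genes of these families found by symbol or synonym. The search covered the 15140 genes that a row of the array could be paired with. The rule reads names and no measured value, but the members were chosen with earlier results of these data known. Each of the 10 is read by 1 row of its own, which shares its values with no other row. The name *CYCB1-1* is used for LOC4327547 throughout, although LOC4326914, given here as *CYCB1;3*, has *CYCB1-1* and *CYCB1;1* among its synonyms too. *CYCB2-1*, *CDKB2-1* and *OsRBR2* were not analysed here.

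Cyclins are the regulatory subunits of cyclin-dependent kinases, and their classes are told apart by sequence. A-type cyclins are present from S phase to mitosis. In tobacco and *Arabidopsis*, transcripts of the A3 class appear early, around the start of S phase, whereas A2 cyclins peak later. B-type cyclins accumulate in G2 and are destroyed in mitosis, so that a *CYCB1* transcript is commonly read as a sign of cells about to divide. CDKB kinases are found only in plants, and their transcripts are restricted to S, G2 and M phases, while retinoblastoma-related proteins bind E2F factors and hold back the genes of S phase until kinases with D-type cyclins phosphorylate them. In a shoot apex, dividing cells lie in the shoot apical meristem (SAM) and in young leaf primordia.

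Shoot apices with the SAM and young leaf primordia were taken from seedlings of 5 days. Their RNA was profiled on a rice gene array of a single color. All plants carried *pACT1-GVG>OsWOX4:RNAi* in the host strain Taichung 65, in which the actin promoter drives GVG, a transcription factor that dexamethasone (DEX) activates, and GVG switches on RNAi against the homeobox gene *OsWOX4*. The 4 groups were 10 μM DEX for 3 h, mock for 3 h, 10 μM DEX for 12 h and mock for 12 h, with 3 arrays of biological replicates each, 12 in all. No arrays of wild-type plants given DEX were analysed here, so DEX, GVG and the RNAi cannot be told apart, and in whole apices fewer dividing cells cannot be told apart from less RNA in each.

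The row of the targeted gene *OsWOX4* had signals of 194, 245 and 262 in the arrays labelled DEX at 3 h, against 117, 139.7 and 142 in the mock arrays. At 12 h it had 364, 389 and 432 in the arrays labelled DEX, against 134, 149 and 125 in the mock arrays. The row was thus higher where a knockdown should lower it. Whether it also reads the RNAi transcript was not tested, and the treatments below are those that the labels give. The median signal of an array was 49.9 to 50.6 in the arrays labelled DEX at 12 h, against 52.8 to 53.4 in the mock arrays. The 3 meristem markers with a row (*OSH1*, *OSH15* and *OSH71*) lay above the array median in all 12 arrays.

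After 12 h, 8 of the 10 genes fell in the arrays labelled DEX and none rose, at an adjusted p under 0.05 (limma, Benjamini-Hochberg, 54922 rows). Over all rows 28.0% fell and 14.9% rose by the same limit, and over the 15829 rows paired with 1 gene 31.6% fell. With rows under the median of the mean signal left out, 47.6% of the 27461 rows left fell, with a median log2 change of -0.24. Of these rows, 13063 fell and 5613 rose. This filter kept all of the 10 genes but *CYCB1-5*. Lower rows were 65.2% of all called rows as deposited and 53.7% after quantile normalization. On the log2 scale the median change of the 10 genes was -0.98, and that of all rows was -0.06. *CYCA3;1*, *OsRBR1* and *CYCA3-2* fell most, *CYCB2-2*, *CYCB1-1* and *CYCA2-1* came to about the same fall as each other, and *CDKB1-1* and *CYCB1;3* fell least. *CYCA1-4* and *CYCB1-5* did not pass. All DEX arrays lay below all mock arrays in 8 of the 10 genes, and in 32.2% of all rows. They are the same 8 genes that were called, so this count is not separate from that of the calls.

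**Figure D1:**
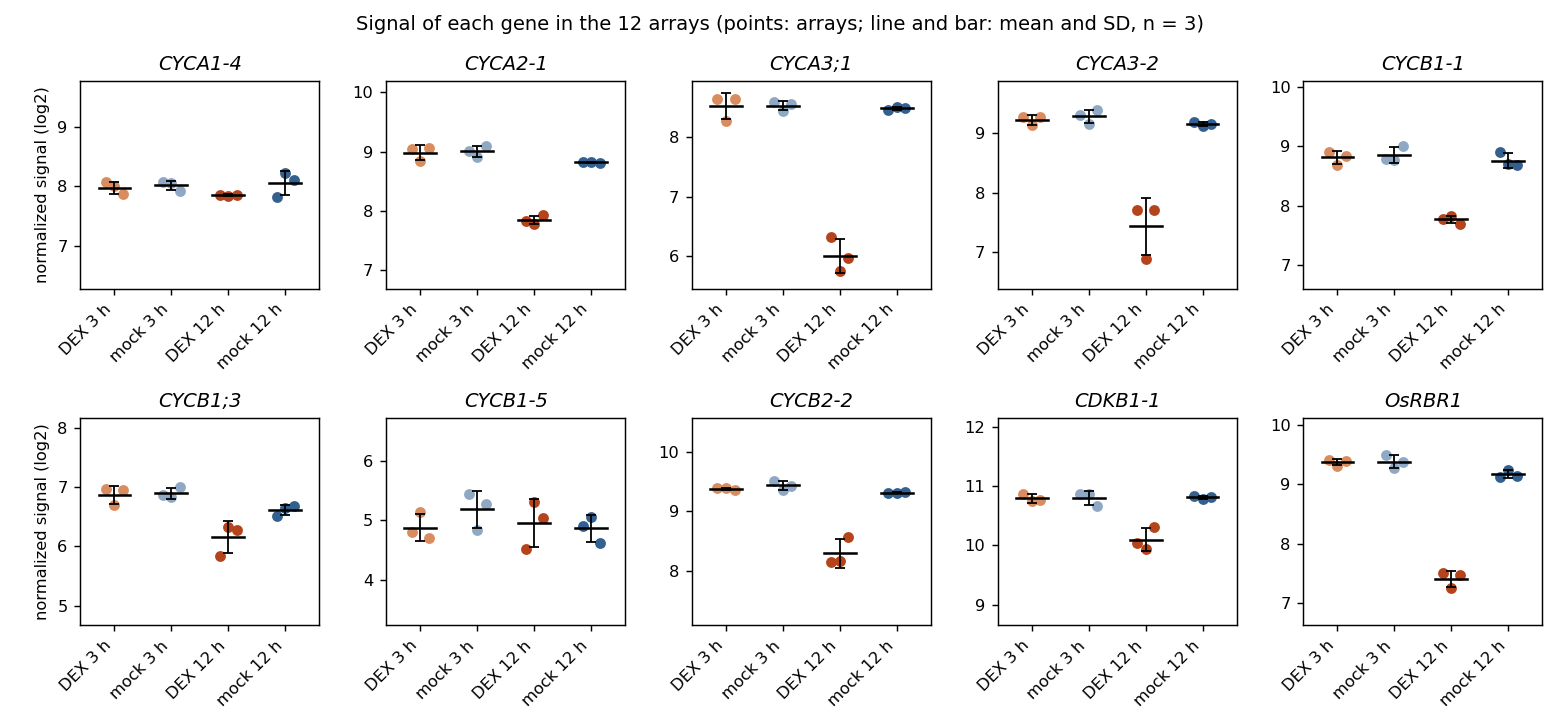
Normalized log2 signal (vertical axis, 3.5 log2 units in every panel) of each of the 10 genes in the 4 groups; points are arrays, and lines with bars are the mean and SD of 3 arrays. In 8 panels the 3 DEX arrays of 12 h lie below the other 9 arrays, and in the panels of *CYCA1-4* and *CYCB1-5* they do not stand apart.

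Of the 4 A-type cyclins, *CYCA3;1* had the deepest fall. Its signals were 79.6, 53.7 and 62.4 in the DEX arrays of 12 h, against 354, 366 and 359.9 in the mock arrays. The brightest DEX array was thus far below the dimmest mock array, and the mock arrays differed little. DEX over mock came to -2.48 ± 0.15 on the log2 scale (SE; limma, adjusted p = 1.71e-07), which leaves 17.9% of the mock level (95% interval 14.3 to 22.4%). Only 0.297% of all rows had a lower fold change.

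*CYCA3-2*, the other cyclin of the A3 class, had signals of 209.7, 117 and 209 in the DEX arrays of 12 h, against 583, 559 and 572 in the mock arrays. The groups were well apart, and replicate 2 of the DEX group was the dimmest array by a wide margin. Its change was -1.73 ± 0.19 on the log2 scale (SE; limma, adjusted p = 1.82e-05), or 30.2% of the mock level (95% interval 22.7 to 40.3%). Without replicate 2 of the DEX group it was -1.45, still past the limit.

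*CYCA2-1* belongs to the class that in *Arabidopsis* works with CDKB1 to promote division and delay endoreduplication. Its signals were 227, 221 and 243 in the DEX arrays of 12 h, against 453, 453 and 450.2 in the mock arrays. Both groups were tight, and the DEX arrays lay at about 51.0% of the mock level (95% interval 44.1 to 58.9%). On the log2 scale this was -0.97 ± 0.10 (SE; limma, adjusted p = 7.72e-06).

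*CYCA1-4*, of the A1 class, was the A-type cyclin with no called change. Its signals were 232, 228 and 231 in the DEX arrays of 12 h, against 227, 299 and 274 in the mock arrays, so the groups overlapped. The DEX arrays were almost equal to each other, and the spread was in the mock group. The difference was -0.20 ± 0.11 on the log2 scale (SE; limma, adjusted p = 0.173), and its 95% interval, -0.44 to 0.04, does not reach the intervals of the other 3 A-type cyclins. The call rested on replicate 1 of the mock group: without this array the gene passed, at -0.31 (adjusted p = 0.0375).

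Of the 4 B-type cyclins, 3 fell at 12 h. *CYCB1-1* had signals of 219.7, 226 and 207 in the DEX arrays, against 478, 416 and 409 in the mock arrays. The DEX arrays were close together and did not overlap with the mock arrays. DEX over mock was -0.99 ± 0.11 on the log2 scale (SE; limma, adjusted p = 1.57e-05), or 50.2% of the mock level (95% interval 42.7 to 59.1%).

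*CYCB2-2*, the cyclin of the B2 class, had signals of 283, 286 and 379 in the DEX arrays of 12 h, against 633, 637 and 640.2 in the mock arrays. Replicate 3 of the DEX group was the least affected array, whereas the mock arrays were nearly equal. The change came to -1.03 ± 0.11 on the log2 scale (SE; limma, adjusted p = 2.09e-05), or 49.1% of the mock level (95% interval 41.3 to 58.4%).

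*CYCB1;3*, another cyclin of the B1 class, had the smallest called change of the 10. Its signals were 57.3, 80.5 and 77.8 in the DEX arrays of 12 h, against 91.2, 100.6 and 101.9 in the mock arrays. Replicate 1 of the DEX group was the lowest array, and the brightest DEX array lay just under the dimmest mock array. Its change was -0.46 ± 0.14 on the log2 scale (SE; limma, adjusted p = 0.0176), or 72.7% of the mock level (95% interval 59.0 to 89.6%). This call was lost after quantile normalization (-0.33, adjusted p = 0.0847) and without replicate 1 of the DEX group (-0.30, adjusted p = 0.0633), and it was also lost without replicate 2 or 3 of the mock group.

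*CYCB1-5*, also of the B1 class, had signals below the array median in every array. They were 22.8, 39.8 and 32.7 in the DEX arrays of 12 h, against 30.1, 33.4 and 24.6 in the mock arrays. The DEX arrays covered the whole range of the mock arrays. The difference was 0.09 ± 0.22 on the log2 scale (SE, limma, adjusted p = 0.781), with a 95% interval of -0.40 to 0.57. For the signal of this row, a fall as large as that of *CYCB1-1* or *CYCB2-2* lies outside the interval. One of the size seen in *CYCB1;3* lies just outside. The row was brighter than only 35.7% of rows in the DEX arrays of 12 h and 33.0% in the mock arrays. Whether a row this dim follows a fall in RNA was not tested.

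*CDKB1-1*, which encodes a B-type cyclin-dependent kinase, had signals of 1055, 975 and 1273 in the DEX arrays of 12 h, against 1812, 1762 and 1800.0 in the mock arrays. The DEX arrays varied more than the mock arrays, but the groups were far apart. On the log2 scale the change was -0.71 ± 0.11 (SE; limma, adjusted p = 0.000283), or 61.1% of the mock level (95% interval 51.6 to 72.3%). Of the arrays labelled DEX, replicate 3 was the highest in both *CDKB1-1* and *CYCB2-2*.

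*OsRBR1*, whose product restrains entry into S phase, had signals of 181, 152 and 178 in the DEX arrays of 12 h, against 558, 608 and 561 in the mock arrays. The DEX arrays lay close together, far below the mock arrays. DEX over mock stood at -1.76 ± 0.10 on the log2 scale (SE; limma, adjusted p = 1.35e-07), or 29.5% of the mock level (95% interval 25.3 to 34.4%), and 1.64% of all rows had a lower change.

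**Figure D2:**
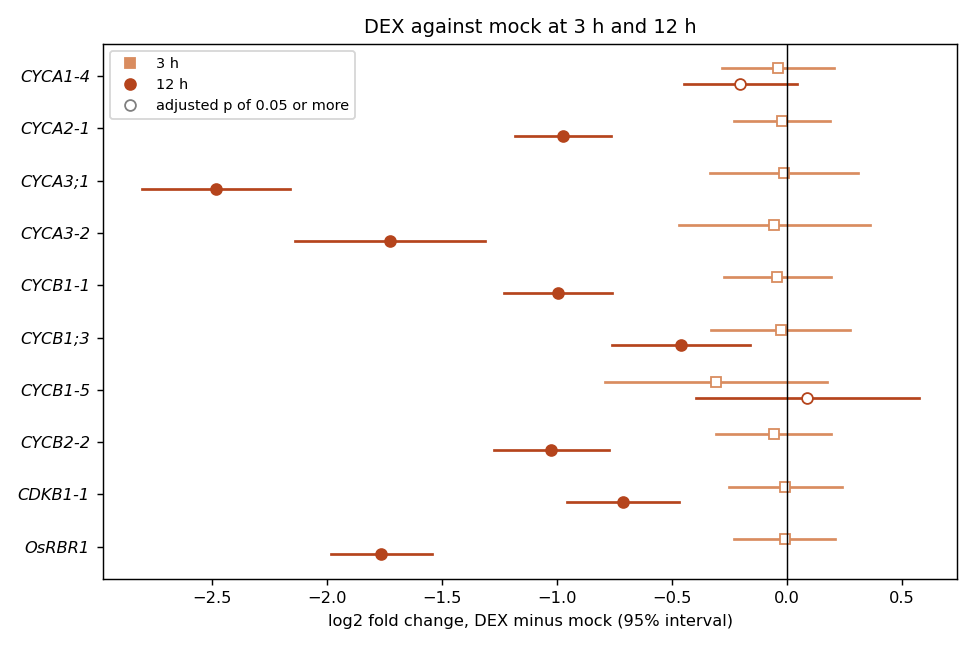
Log2 fold change of DEX against mock (horizontal axis) at 3 h (squares) and 12 h (circles) for the 10 genes; lines are 95% intervals from limma and open symbols did not pass the adjusted p limit of 0.05. All 10 intervals of 3 h cover 0, and the 12 h intervals of *CYCA3;1*, *CYCA3-2* and *OsRBR1* lie below those of the other genes.

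The 95% intervals of *CYCA3;1*, *CYCA3-2* and *OsRBR1* at 12 h did not overlap with those of the other 7 genes, while those of *CYCA2-1*, *CYCB1-1*, *CYCB2-2* and *CDKB1-1* overlapped with each other. The highest upper bound of the first 3 was -1.31 (*CYCA3-2*), and the lowest lower bound of the rest was -1.28 (*CYCB2-2*). This gap is narrow and belongs to the main fit. In the fit of only the 6 arrays of 12 h the SE was larger, 0.23 for *CYCA3-2* and 0.14 for *CYCB2-2*. Without replicate 2 of the DEX group *CYCA3-2* was at -1.45, so the gap need not hold in other fits. The interval of *CYCB1;3* ran down to -0.76 and overlapped with that of *CDKB1-1*. No test between genes was run, and rows of different genes need not respond equally to the same change in RNA. The study's limits were a fold of 2.0 and a p of 0.01, with no test or adjustment named. With limma's unadjusted p in that place, 4 of the 10 genes were lower (*CYCA3;1*, *OsRBR1*, *CYCA3-2* and *CYCB2-2*), against 9.76% of all rows. The falls of *CYCB2-2*, *CYCB1-1* and *CYCA2-1* lie close to this fold limit, so which of them pass depends on the arrays. *CYCB2-2* did not pass after median centring or quantile normalization, nor without replicate 1 of the DEX group (-0.95) or replicate 2 of it (-0.96). *CYCB1-1* passed in both fits that left out 1 of these arrays.

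**Figure D3:**
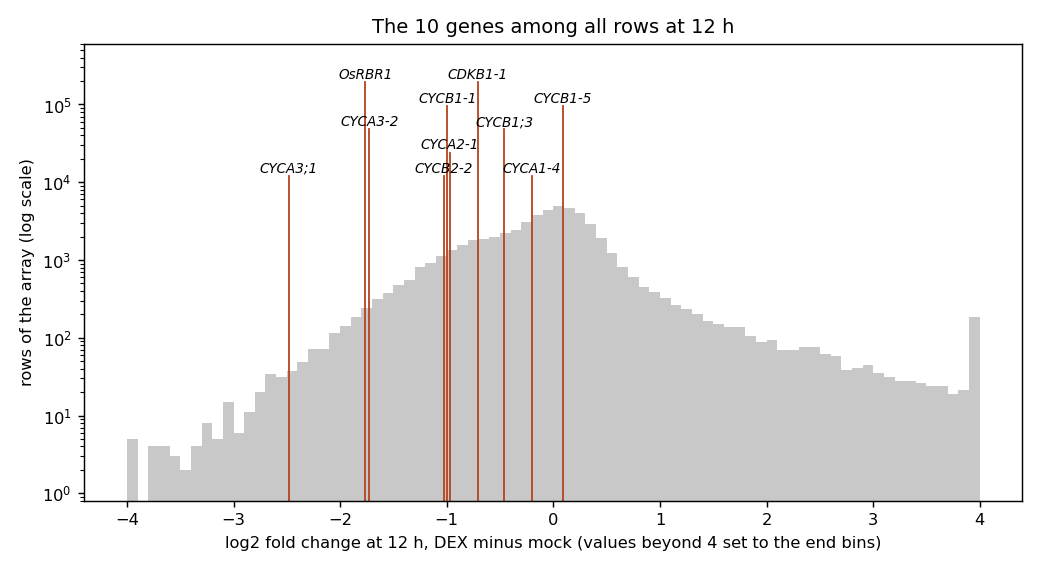
Number of array rows (vertical axis, log scale) by log2 fold change of DEX against mock at 12 h (horizontal axis); vertical lines mark the 10 genes. *CYCA3;1* lies in the far left tail, and *CYCA1-4* and *CYCB1-5* lie near the center of the distribution.

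The 3 DEX arrays of 12 h did not fall evenly. Measured from the mock mean of 12 h on the log2 scale, *CYCA3;1* stood at -2.18, -2.74 and -2.53 in replicates 1, 2 and 3 of the DEX group. *CYCA3-2* stood at -1.45, -2.28 and -1.45, and *OsRBR1* at -1.67, -1.92 and -1.69, so replicate 2 was the lowest in all 3 of the genes with the deepest falls. Replicate 2 was also the lowest for *CYCA2-1* and *CDKB1-1*, but not for the B-type cyclins. *CYCB1;3* stood at -0.77, -0.28 and -0.33, with replicate 1 the lowest, and *CYCB1-1* at -0.98, -0.94 and -1.07, with replicate 3 the lowest.

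**Figure D4:**
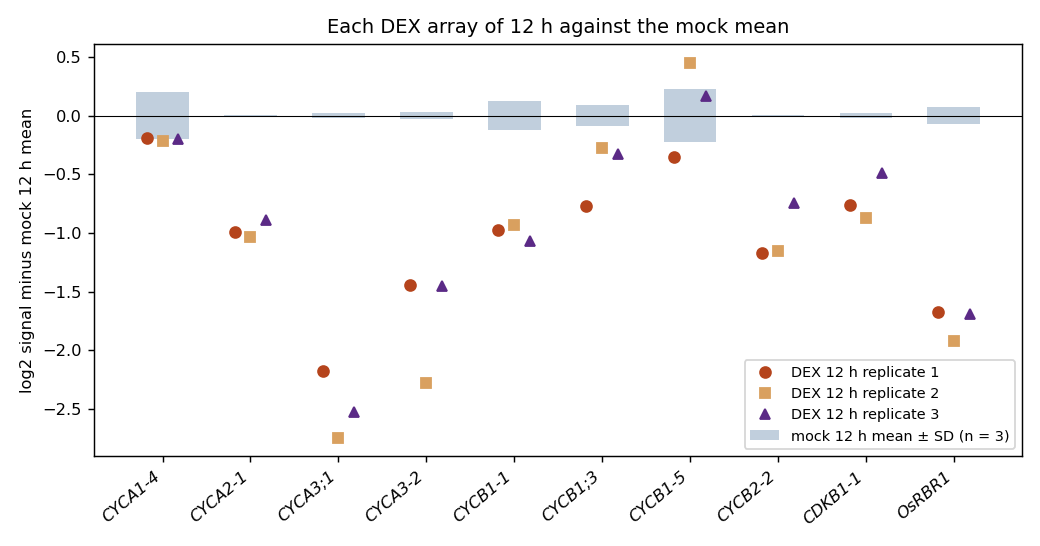
Log2 signal of each DEX array of 12 h minus the mean of the 3 mock arrays of 12 h (vertical axis) for the 10 genes; shaded boxes are the SD of the mock arrays around their mean (n = 3). The arrays spread most for *CYCA3-2* (0.84 log2 units) and *CYCB1-5* (0.80) and least for *CYCA1-4* (0.03).

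After 3 h of DEX none of the 10 genes passed in limma, either at an adjusted p under 0.05, which 0.244% of all rows passed, or at an unadjusted p under 0.05, which 6.11% of all rows passed. With shares this low, a count of 0 among 10 genes does not set them apart from other rows. The DEX and mock arrays of 3 h overlapped in each of the 10 genes, and they did not overlap in 10.7% of all rows. *CYCA3;1* had signals of 399.9, 309 and 403 in the DEX arrays, against 386, 349 and 379 in the mock arrays. The lowest and the highest of these 6 values both belonged to the DEX group. Its log2 fold change was -0.01 (SE 0.15), with an interval of 79.3 to 124% of the mock level. *OsRBR1* had 677, 636 and 674 in the DEX arrays, against 724, 618 and 662 in the mock arrays, and its interval was 85.2 to 116% of the mock level. A change of the size seen at 12 h in these genes was therefore outside the interval at 3 h.

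The other members had no called change at 3 h either. *CYCA1-4* had signals of 267, 255 and 233 in the DEX arrays, against 268, 266 and 242 in the mock arrays. *CYCA2-1* had 531, 457 and 537 in the DEX arrays, against 516, 482 and 548 in the mock arrays. *CYCA3-2* had 621, 562 and 620.4 in the DEX arrays, against 631, 573 and 669 in the mock arrays. In these A-type cyclins the DEX and mock arrays were interleaved. *CYCB1;3* had 124, 103 and 123 in the DEX arrays, against 116, 113 and 127 in the mock arrays. *CYCB1-1* had signals of 479, 413 and 459 in the DEX arrays, against 441, 436 and 514 in the mock arrays. *CYCB2-2* had 674, 671 and 656 in the DEX arrays, against 732, 660.4 and 689.7 in the mock arrays. The highest array was a mock array in these 3 B-type cyclins. *CDKB1-1* had 1872, 1713 and 1731 in the DEX arrays, against 1854, 1871 and 1619 in the mock arrays. Here the groups covered much of the same range. The log2 fold changes of all members but *CYCB1-5* lay between -0.06 and -0.01. *CYCB1-5* had -0.31 ± 0.22 (SE; limma, adjusted p = 0.987), with signals of 27.8, 35.0 and 26.0 in the DEX arrays, against 43.5, 28.6 and 38.6 in the mock arrays.

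The change in the DEX effect between the times was tested in the same fit. The effect at 12 h was lower than that at 3 h for 7 of the 10 genes at an adjusted p under 0.05 in limma, where 19.5% of all rows were lower. With rows under the median of the mean signal left out, 38.5% of rows were lower (10559 rows, against 4241 higher). Of all rows called for this difference, 65.3% were lower as deposited and 53.8% after quantile normalization. *CYCA3;1* differed by -2.47 ± 0.21 (SE; adjusted p = 8.40e-06), *OsRBR1* by -1.75 ± 0.14 (adjusted p = 6.89e-06) and *CDKB1-1* by -0.71 ± 0.16 (adjusted p = 0.00545). For *CYCB1;3*, which fell at 12 h, the difference was -0.43 ± 0.19 (SE; adjusted p = 0.119), which did not pass. *CYCA1-4* and *CYCB1-5* had -0.16 ± 0.16 (SE; adjusted p = 0.483) and 0.40 ± 0.31 (adjusted p = 0.380), which did not pass either.

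Mock at 12 h was set against mock at 3 h to follow the genes without DEX. None of the 10 genes passed in limma at an adjusted p under 0.05, and 0% of all rows were called lower. None passed at an unadjusted p under 0.05 either, which 10.2% of all rows did. The log2 fold changes lay between -0.32 (*CYCB1-5*) and 0.04 (*CYCA1-4*). All mock arrays of 12 h lay below all mock arrays of 3 h for *CYCA2-1*, *CYCB1;3*, *CYCB2-2* and *OsRBR1*, as they did for 11.0% of all rows. For *OsRBR1* the signals were 558, 608 and 561 in mock at 12 h, against 724, 618 and 662 in mock at 3 h, or -0.21 ± 0.10 on the log2 scale (SE; limma, adjusted p = 0.505). These mock arrays of 12 h are also the ones against which the DEX arrays of 12 h were set.

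Other cell cycle genes, 26 in number and found by name, moved both ways at 12 h. Of these, 10 fell and 5 rose in limma at an adjusted p under 0.05, where 28.0% of all rows fell and 14.9% rose. With rows under the median of the mean signal left out, 47.6% of rows fell (13063 rows, against 5613 that rose). The median change was -0.18 on the log2 scale, against -0.06 over all rows. The largest falls were those of *CYCD2-2*, with -2.40 ± 0.18 (SE, limma, adjusted p = 1.12e-06), and *CYCD3-2*, with -1.97 ± 0.11 (adjusted p = 1.36e-07). Both are D-type cyclins, a class that acts with kinases on the retinoblastoma-related proteins. *WEE1*, which encodes a kinase that inhibits cyclin-dependent kinases, had signals of 64.1, 37.3 and 60.6 in the DEX arrays of 12 h, against 171, 166 and 183 in the mock arrays, or -1.72 ± 0.17 on the log2 scale (SE; adjusted p = 8.24e-06). The A-type kinases *CDKA-1* and *CDKA-2* fell by 0.65 and 0.55 on the log2 scale, and *CKS1*, whose product docks on the kinases, fell by 0.62. The D-type cyclins *CYCD4-1* and *CYCD4-2* fell by 1.31 and 0.38, *CDKF-4* by 0.68 and *CYCP3-1* by 0.52. Not all D-type cyclins fell: *CYCD5-1* (0.03), *CYCD5-3* (-0.22) and *CYCD6-1* (0.02) did not pass.

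The largest rise among these genes was that of *EL2*, which encodes an inhibitor of cyclin-dependent kinases of the SIM family that stress induces in rice. Its signals were 673, 703 and 775 in the DEX arrays of 12 h, against 133, 96.5 and 98.4 in the mock arrays. DEX over mock was 2.73 ± 0.15 on the log2 scale (SE; limma, adjusted p = 9.79e-08). At 3 h it had 72.7, 78.6 and 67.1 in the DEX arrays, against 103, 86.6 and 75.8 in the mock arrays, so the groups overlapped. *CDKG-1*, a kinase gene, rose by 1.09 ± 0.11 at 12 h on the log2 scale (SE; adjusted p = 9.56e-06). *CDKF-2* rose by 0.84, *CYCT1-1* by 0.71 and *OsSDS*, a meiotic cyclin gene, by 0.41. *KRP1* and *KRP6*, of the other family of kinase inhibitors, had 0.02 and -0.36 and did not pass, nor did *MYB3R-2* with 0.06, a factor that binds the promoters of B-type cyclins in rice. At 3 h no gene of this list passed the adjusted limit and 1 of 26 had an unadjusted p under 0.05, beside the shares of 0.244% and 6.11% of all rows.

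**Figure D5:**
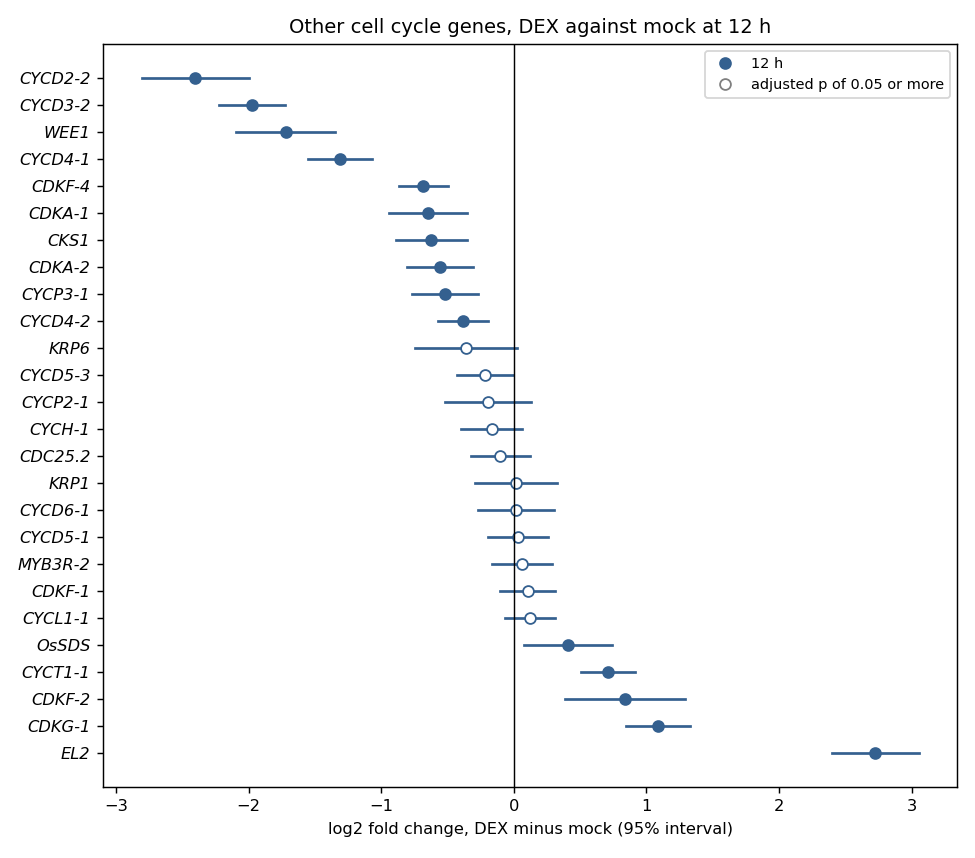
Log2 fold change of DEX against mock at 12 h (horizontal axis) for the 26 other cell cycle genes, sorted; lines are 95% intervals from limma and open circles did not pass the adjusted p limit of 0.05. *CYCD2-2* (-2.40) and *EL2* (2.73) are at the ends.

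Markers of tissues in the apex, and of root, which was not sampled, were looked at beside these genes at 12 h, and they did not all move one way. All 3 meristem markers fell at 12 h, by 0.71 (*OSH1*), 0.93 (*OSH15*) and 0.74 (*OSH71*) on the log2 scale, and their summed signal was 224 to 237 in the DEX arrays, against 338 to 451 in the mock arrays. Of 6 leaf primordium markers 4 fell, *DL* (-1.44), *OsYAB1* (-2.69), *OsYAB4* (-0.80) and *OsYAB2*, while *OsYAB3* and *OsYAB7* rose by 1.42 and 2.08. Their summed signal was 2946 to 3208 in the DEX arrays, against 1834 to 1979 in the mock arrays, and in the DEX arrays it is mostly that of *OsYAB3* and *OsYAB7*. *OsYAB3* alone had 1770, 1883 and 1797 in the DEX arrays, against 672, 684 and 674 in the mock arrays. Of 3 vascular markers *OsHB1* and *OsHB2* fell and *OsPNH1* had 0.06, not called, with sums of 895 to 1063 in the DEX arrays, against 1591 to 1668 in the mock arrays. All 3 genes of chlorophyll a/b-binding proteins, which mark photosynthetic cells, fell, with sums of 144 to 207 in the DEX arrays, against 2475 to 2571 in the mock arrays. Of 3 root markers *QHB* rose by 3.91 and 2 fell, *OsSHR1* (-1.53) and *OsSCR* (-1.11). The sums were 244 to 352 in the DEX arrays, against 136 to 155 in the mock arrays. This higher sum comes from *QHB* alone, with signals of 303, 196 and 308 in the DEX arrays, against 22.1, 16.6 and 14.6 in the mock arrays. Although no root was sampled, *OsSHR1* had signals of 111, 99.7 and 102 in the mock arrays. At 3 h the sums of the meristem markers were 329 to 355 in the DEX arrays, against 322 to 387 in the mock arrays. The root sums overlapped too, with 135 to 183 against 152 to 163. Other sums at 3 h did not overlap. Leaf primordium markers had 2255 to 2372 in the DEX arrays, against 1863 to 1920 in mock, and *OsYAB3* was called higher (0.55, limma, adjusted p = 0.0246). Vascular markers had 1570 to 1617, against 1623 to 1728 in mock. Photosynthetic markers had 1787 to 1979, against 2076 to 2297 in mock. The part of these shifts in the falls of the cyclins was not tested.

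The genes with a printable name whose signals most resembled the mean profile of the 10, after each was standardized, were *EXO-1*, *AGO7*, *DAPDC*, *OsPRDA1* and *RLA1*, out of 1725. Their Pearson correlations with that profile over 12 arrays were 0.986 to 0.988, a description in which the 3 DEX arrays of 12 h stand apart from the rest. Over the 9 other arrays the correlations were 0.538 (*RLA1*) to 0.861 (*DAPDC*). *EXO-1*, encoding an exonuclease, had a log2 fold change at 12 h of -1.41, and *AGO7*, encoding an Argonaute protein of the trans-acting siRNA pathway, had -0.98.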

How the data were processed

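Total RNA was turned into a sense-strand DNA target, which was hybridized to Rice (US) Gene 1.0 ST arrays. Signals were normalized by the authors with the standard settings of Affymetrix Expression Console 1.3, and the range of the deposited values shows that they are on a log2 scale; the signals in the text are 2 to the power of these values. Arrays have no read depth, so their number limits the precision. Rows were paired with genes through the platform annotation and named from a RefSeq table (ASM3414082v1), in which all 15140 genes were found; where a gene has more rows, the brightest was used.

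The 4 group means of the 12 arrays were fitted in limma 3.58.1 (R 4.3.3), and p-values were adjusted over all 54922 rows by Benjamini-Hochberg; the methods name no test for the arrays. The fit was tested on simulated data. Replicates are biological by the methods, and their numbers were not used to pair the arrays in the main fit. The members and lists were chosen with earlier results of these data known. The genes named are the 10 members, *OsWOX4*, members of a list of other cell cycle genes, tissue markers and the 5 genes of most similar profile. Each setting tried is given in the closing section. Figures were drawn with matplotlib 3.10.9 (Python 3.11.15). A planned look at promoters and proteins was not run, and no sequences were used here.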

Additional observations from a re-analysis of the deposited data

Results flagged for a closer look

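The DEX effect differed between the times in 7 of the 10 genes by limma's test of the difference at an adjusted p under 0.05. All 7 were lower, where 19.5% of all rows were lower. With rows under the median of the mean signal left out, 38.5% of rows were lower. The effect at 12 h minus that at 3 h, on the log2 scale, was -2.47 for *CYCA3;1*, -1.75 for *OsRBR1* and -1.67 for *CYCA3-2*. It was -0.97 for *CYCB2-2*, -0.95 for *CYCB1-1*, -0.95 for *CYCA2-1* and -0.71 for *CDKB1-1*.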

How the results depend on the processing

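The settings tried were centring each array on its median, quantile normalization, leaving out rows under the 25th percentile or the median of the mean signal, a fit of only the 6 arrays compared, a variance trend with intensity, a replicate block, 1 row for each gene, the mean of a gene's rows, an adjusted p limit of 0.01, and leaving out each array. The count of the 10 genes called at 12 h was 7 to 9 when an array was left out and 7 to 8 otherwise. *CYCB1;3* was lost as given above, and also at the limit of 0.01, and *CYCA1-4* was gained without replicate 1 of the mock group. The share of all rows that fell moved too. It was 28.0% in the main fit, 23.4% after quantile normalization, 21.6% at the limit of 0.01 and 24.9 to 28.0% when an array was left out. Of the rows kept by the filter at the median, 47.6% fell. The count at 3 h and for mock at 12 h against 3 h stayed 0, and 7 genes were called in each fit of the difference between times, which the fit of 6 arrays cannot give. The filter at the median left out *CYCB1-5*. Same-numbered arrays had deviations correlated by -0.05 to 0.17, and arrays of other numbers by -0.15 to 0.07. With 3 arrays in a group, these values cannot show whether the numbers pair the arrays. With the replicate block 8 genes were called at 12 h, as without it. By the fold limit of 2.0, the count was 3 to 5, with *CYCB1-1*, *CYCB2-2* or *CYCA2-1* in or out, beside 9.76% of all rows in the main fit. Of the other cell cycle genes, 14 to 16 were called in either direction, where 28.0% of all rows fell and 14.9% rose in the main fit. Over all rows, 132 were called higher at 3 h, against 6 in the fit of 6 arrays, 62 at the limit of 0.01 and 61 to 120 when an array was left out. For the difference between times 10706 rows were lower, and 6779 at the limit of 0.01.

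Changes of sign were seen only in values that did not pass. With median centring the 3 h change was 0.0011 for *CYCA3;1*, 0.00704 for *CDKB1-1* and 0.0028 for *OsRBR1*. With quantile normalization it was 0.018 for *CDKB1-1*, while the difference between times was 0.0048 for *CYCA1-4* and the mock change was -0.025 for *CDKB1-1*. Leaving out an array gave 3 h changes of -0.085 to 0.016 for *CYCA1-4*, -0.069 to 0.053 for *CYCA2-1*, -0.077 to 0.11 for *CYCA3;1*, -0.087 to 0.036 for *CYCB1-1*, -0.073 to 0.061 for *CYCB1;3*, -0.073 to 0.032 for *CDKB1-1* and -0.064 to 0.0499 for *OsRBR1*. The mock change was -0.051 to 0.15 for *CYCA1-4* and -0.056 to 0.048 for *CDKB1-1*, and the 12 h change of *CYCB1-5* was -0.092 to 0.31.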
